A study of Mus musculus with 4 samples.

Results

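The mouse mitochondrial genome carries its own small set of genes, and the deposited expression table listed 13 of them, all protein-coding, among 34745 genes. Members are every gene whose symbol begins with mt-, a choice made with earlier results of these data known. The 2 ribosomal RNA (rRNA) and 22 transfer RNA (tRNA) genes that the GENCODE M21 annotation places on the same chromosome are not analysed here. All 13 members passed the filter on low counts.

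The study sequenced RNA from cultured CD4+ T cells of C57BL/6 mice that are wild type or carry Setd2-CD4 cre, in which a Cre recombinase driven by the CD4 promoter acts on Setd2, a histone methyltransferase gene, in T cells. Naive CD4+ cells from spleen were polarized towards regulatory T cells (Treg cells) for 3 days in both groups. There were 4 libraries, wild type 13 and 15 and knockout-labelled 22 and 24. The labels do not say whether 2 libraries of a group come from separate animals or cultures, so the p-values reflect variation among these libraries that may be technical, and they say nothing on Cre or floxed alleles in the wild-type mice.

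Mitochondrial DNA encodes core subunits of the respiratory chain and of ATP synthase, and every other protein that mitochondria need, including the polymerase that copies their genes into RNA, is encoded in the nucleus. Transcription starts in the control region and runs around the circle as long precursors covering many genes, from which the tRNAs that lie between most of the protein genes are cut out to release the mRNAs. On the strand that carries 12 of the 13 protein genes, mt-Nd1 lies near the start of the precursor and mt-Cytb near its end, whereas mt-Nd6 is read from the opposite strand and lies near the start of its own precursor. Treg cells are known to rely on oxidative phosphorylation.

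Library totals were 14599957 to 16030869 counts, so 3 counts, the limit that a count of 0 allows, were worth 0.184 to 0.201 CPM, the unit of counts scaled to a common library size in which single genes are given. Setd2 itself was counted at 137, 146, 137 and 113 CPM in wild type 13 and 15 and knockout-labelled 22 and 24, with overlapping groups and a log2 fold change of -0.17 (adjusted p = 0.436, edgeR's quasi-likelihood test). Gene-level counts do not show whether an exon was removed, so the groups are named by their labels. Cd4 and Cd3e, which define CD4+ T cells, were present in all 4 libraries, while Foxp3, the factor that defines Treg cells, was at 242 and 247 CPM in wild type against 31.9 and 75.8 in the knockout-labelled libraries. Il2ra, the interleukin-2 receptor alpha chain gene that Treg cells express, fell from 1193 and 1231 to 828 and 857 CPM (adjusted p = 0.0304), lost without wild type 13 (0.166) or 15 (0.247).

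Some members overlap, and their shared bases are shown because a read inside them belongs to both genes. Sequences are from GENCODE M21 transcripts of the GRCm38 build, 5′ to 3′ on the plus strand of chromosome MT. The first stretch, at positions 7927 to 7969, is 43 bases shared by mt-Atp8 and mt-Atp6, and the second, at 13552 to 13565, is 14 bases where mt-Nd5 and mt-Nd6 meet on opposite strands. The last sequence is the glycine tRNA gene mt-Tg, at 9391 to 9458, which fills the 68 bases between mt-Co3 and mt-Nd3. The genes are divided at this place below, a choice made after their values were seen.
mt-Atp8 and mt-Atp6 overlap: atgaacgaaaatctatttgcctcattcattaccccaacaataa
mt-Nd5 and mt-Nd6 overlap: ttaatctcgagtaa
mt-Tg: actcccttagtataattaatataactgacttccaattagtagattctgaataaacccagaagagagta

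As a whole the 13 genes took nearly the same part of every library. They held 4.96% of counts in wild type 13, 5.06% in wild type 15, 5.02% in knockout-labelled 22 and 5.03% in knockout-labelled 24, and the knockout-labelled values lay between the wild-type ones. The wild-type mean was 5.01% ± 0.0755 and the knockout-labelled mean 5.03% ± 0.00432 (SD over 2 libraries), a difference of 0.0169 percentage points, which was -0.0365 without wild type 13 and 0.0703 without wild type 15. Within that sum the genes did not move alike.

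Of the 13 genes, 4 fell in the knockout-labelled libraries, 0 rose and 9 did not pass the threshold of 0.05 on the adjusted p (edgeR's quasi-likelihood test, Benjamini-Hochberg over all 13279 genes tested). The 4 were mt-Cytb, mt-Nd6, mt-Nd5 and mt-Nd3, lower by factors of 2.01, 2.25, 1.59 and 1.58. Over all genes tested, 10.1% passed, 4.59% as lower and 5.53% as higher, and among genes with a mean of 100 CPM or more 4.33% were lower. At an unadjusted p under 0.05 the counts for the 13 were 1 higher and 6 lower, and DESeq2 and limma-voom called 0 higher each and 5 and 4 lower. The shares above are for adjusted edgeR calls only. No excess is read from counts under the other cuts, here or in the lists below. The median log2 fold change was -0.20 over the 13 genes and -0.00133 over all genes tested.

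**Figure D1:**
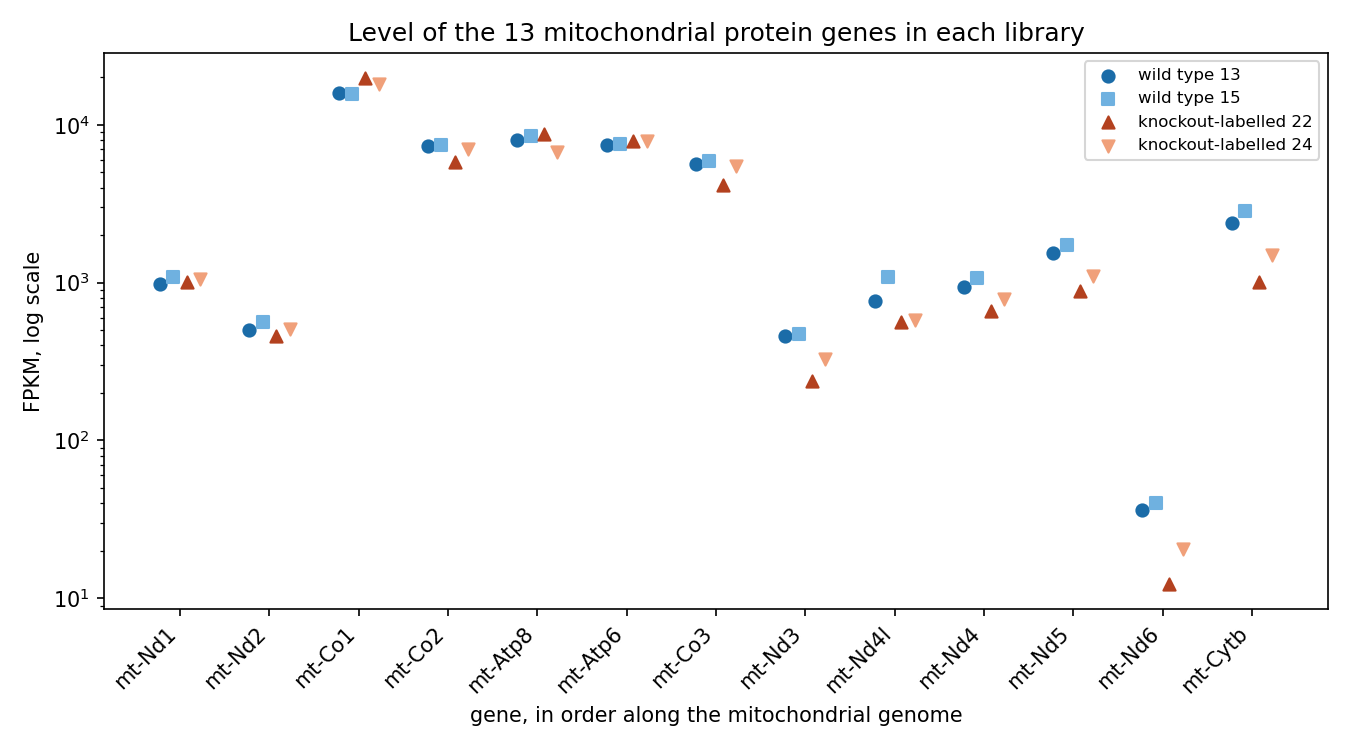
Deposited FPKM (fragments per kilobase of gene length, scaled to library size, log axis) of the 13 genes in genome order, with 1 point for each of the 4 libraries. From mt-Nd3 to mt-Cytb both knockout-labelled points lie under both wild-type points, with mt-Cytb at 2377 and 2847 against 1014 and 1496.

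Levels can be compared between genes only per unit of length, on the FPKM scale. In wild type the order from high to low was mt-Co1, mt-Atp8, mt-Atp6, mt-Co2, mt-Co3, mt-Cytb, mt-Nd5, mt-Nd1, mt-Nd4, mt-Nd4l, mt-Nd2, mt-Nd3 and mt-Nd6. Neighbours whose wild-type values overlapped were mt-Nd1 with mt-Nd4 and mt-Nd4 with mt-Nd4l. The top gene, mt-Co1, reached 15986 and 15568 FPKM in wild type 13 and 15 and 19691 and 18037 FPKM in knockout-labelled 22 and 24, whereas mt-Nd6, at the bottom, had 36.2 and 40.3 FPKM against 12.4 and 20.4. In the knockout-labelled group mt-Atp6 stood above mt-Atp8 and mt-Nd1 above mt-Nd5, but these pairs overlapped there, as did mt-Atp8 with mt-Co2 and mt-Cytb with mt-Nd1.

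Complex I, the NADH dehydrogenase that feeds electrons from NADH into the chain, has 7 subunits among the members, of which 3 fell. The first of the 7 along the genome, mt-Nd1 (positions 2751 to 3707), encodes a membrane subunit near the quinone site and had 914 and 1018 CPM in wild type 13 and 15 and 1010 and 1014 in knockout-labelled 22 and 24, so the groups overlapped. Its log2 fold change was 0.07 ± 0.11 (SE; adjusted p = 0.703). For mt-Nd2 (3914 to 4951), a membrane subunit of the proton-pumping arm, the levels were 510 and 574 CPM against 494 and 526, again overlapping, with a log2 fold change of -0.09 ± 0.12 (adjusted p = 0.635). Both genes lie before mt-Co1, and neither differed by more than the spread between replicates.

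The complex I genes beyond mt-Co3 were lower in both knockout-labelled libraries. The small membrane subunit gene mt-Nd3 (9459 to 9806) had 157 and 160 CPM in wild type and 86.6 and 114 in the knockout-labelled libraries, means of 159 ± 2.52 and 100.3 ± 19.3 (SD, n = 2). Its log2 fold change was -0.66 ± 0.16, with an adjusted p that rounds to 0.05 (edgeR's quasi-likelihood test), just under the threshold. The call was lost without wild type 13 (adjusted p = 0.197) or wild type 15 (0.270), with upper-quartile (0.0563) or DESeq2 scaling in edgeR (0.0507), on FPKM (0.0634 with limma), with a filter at 5 CPM (0.0548), and with the counts of its nuclear copy added (0.0511). It is thus the least firm of the 4.

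Next in order come mt-Nd4l (9877 to 10173) and mt-Nd4 (10167 to 11544), membrane subunits whose genes share 7 bases and are carried on a single mRNA. For mt-Nd4l there were 224 and 318 CPM in wild type and 175 and 171 in the knockout-labelled libraries (log2 fold change -0.65 ± 0.18, adjusted p = 0.0646). For mt-Nd4 there were 1277 and 1443 against 957 and 1079 CPM (log2 fold change -0.42 ± 0.12, adjusted p = 0.0693). In neither gene did the groups overlap, and neither passed the threshold. With no filter on low counts both passed as lower in edgeR (adjusted p of 0.0176 for mt-Nd4l and 0.0309 for mt-Nd4), as did mt-Nd4l with DESeq2 (0.0169). When 1 library was left out, the log2 fold change of mt-Nd4 lay between -0.51 and -0.32.

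The proton-pumping subunit gene mt-Nd5 (11742 to 13565) fell from 2762 and 3071 CPM in wild type to 1672 and 2007 CPM. The means were 2916 ± 219 and 1840 ± 237 (SD, n = 2), a log2 fold change of -0.66 ± 0.13 (adjusted p = 0.0297). The call was lost without wild type 13 (0.0584) or 15 (0.152) and on FPKM (0.0596 with limma).

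The membrane subunit gene mt-Nd6 (13552 to 14070) is the member on the opposite strand, and it was the lowest in level. It had 301 and 305 counts in wild type 13 and 15 and 100 and 166 counts in knockout-labelled 22 and 24, or 18.4 and 20.5 against 6.69 and 10.6 CPM. Its means of 19.5 ± 1.42 and 8.64 ± 2.76 (SD, n = 2) gave a log2 fold change of -1.17 ± 0.25 (adjusted p = 0.038), lost without wild type 13 (0.0708) or 15 (0.140). No source used here states whether counting took strand into account, and reads of mt-Nd6 therefore cannot be told apart from those of the plus-strand precursor that crosses the same bases. The ratio of mt-Nd6 to mt-Nd5 on the FPKM scale was 0.0235 and 0.0234 in wild type 13 and 15, against 0.0141 and 0.0186 in the knockout-labelled libraries.

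Complex III, which passes electrons from ubiquinol to cytochrome c, has 1 member, the cytochrome b gene mt-Cytb (14145 to 15288). It fell from 2671 and 3190 CPM in wild type to 1210 and 1710 CPM, with knockout-labelled 22 the lowest. The means were 2931 ± 367 and 1460 ± 354 (SD, n = 2) and the log2 fold change was -1.01 ± 0.18 (adjusted p = 0.0267, edgeR's quasi-likelihood test). It stayed under the threshold without wild type 13 (0.0174), knockout-labelled 22 (0.0257) or knockout-labelled 24 (0.00457), and was lost without wild type 15 (0.0733) and on FPKM (0.0537 with limma). Over these omissions of 1 library the log2 fold change lay between -1.28 and -0.77.

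Complex IV, the cytochrome c oxidase that reduces oxygen, has its 3 core subunit genes among the members, and none passed the threshold. The catalytic subunit gene mt-Co1 (5328 to 6872) had 24266 and 23558 CPM in wild type and 31749 and 27844 in the knockout-labelled libraries, which lay above. Its log2 fold change was 0.32 ± 0.10 (adjusted p = 0.0842). With no filter on low counts it passed as higher. When 1 library was left out, its log2 fold change lay between 0.23 and 0.40.

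The copper-binding subunit gene mt-Co2 (7013 to 7696) had 4950 and 4993 CPM in wild type against 4165 and 4800 (log2 fold change -0.15 ± 0.11, adjusted p = 0.376). The third core subunit gene, mt-Co3 (8607 to 9390), had 4351 and 4498 against 3415 and 4273 CPM (log2 fold change -0.20 ± 0.13, adjusted p = 0.319). In both, knockout-labelled 22 was well under the other 3 libraries and knockout-labelled 24 close to wild type. When 1 library was left out, the log2 fold change lay between -0.26 and -0.04 for mt-Co2 and between -0.38 and -0.04 for mt-Co3.

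Complex V, the ATP synthase, has 2 members, both parts of its membrane sector, and neither passed. For mt-Atp8 (7766 to 7969) the values were 1606, 1702, 1872 and 1378 CPM, with the knockout-labelled libraries on either side of wild type (log2 fold change -0.03 ± 0.16, adjusted p = 0.924). Its sign turned without wild type 15 (0.01) or knockout-labelled 24 (0.17). For mt-Atp6 (7927 to 8607), the proton channel subunit, the values were 5001 and 5056 CPM against 5626 and 5340, with the knockout-labelled libraries above (log2 fold change 0.12 ± 0.09, adjusted p = 0.392).

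Groups did not overlap for 10 of the 13 genes, with the knockout-labelled libraries below for 8 and above for 2. With 2 libraries a group this was common, at 63.8% of all genes tested, 32.7% below and 31.1% above, so the count of 10 is read against that share.

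**Figure D2:**
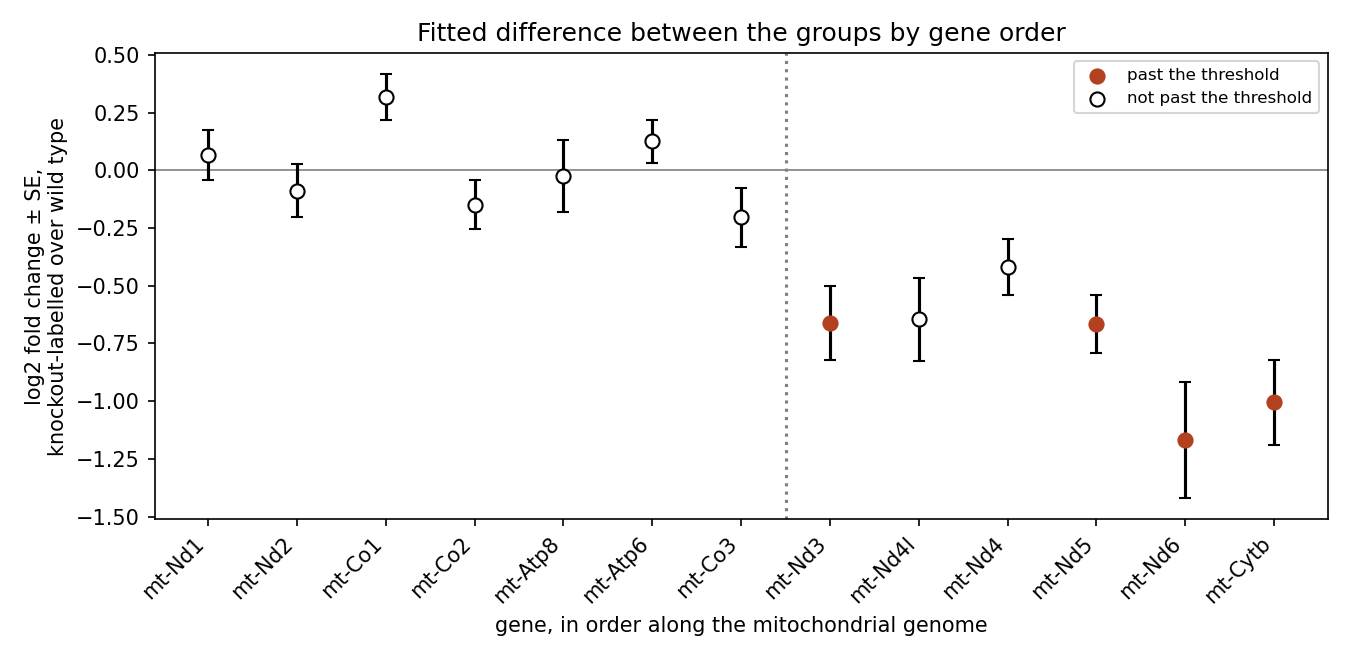
Log2 fold change (knockout-labelled over wild type, ± SE, n = 2 libraries a group) of the 13 genes in genome order, filled where the adjusted p was under 0.05. The dotted line marks mt-Tg, the tRNA gene between mt-Co3 and mt-Nd3: to its left values lie from -0.20 to 0.32, to its right from -1.17 to -0.42.

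Set in genome order, the differences fell into separate ranges on the sides of mt-Tg, a division chosen after the values were seen. From mt-Nd1 to mt-Co3, the 7 genes had log2 fold changes of -0.20 to 0.32 with a median of -0.03, and 0 passed. The 6 genes from mt-Nd3 to mt-Cytb had -1.17 to -0.42 with a median of -0.66, and 4 fell. In all 6 both knockout-labelled libraries were below both wild-type libraries, and knockout-labelled 22 was the lower in 5 of them, with mt-Nd4l the exception. The 2 ranges did not overlap under any of the 17 alternatives computed for each gene, nor in the values reported here, which makes 18 settings. This count is no repeated test of the division, which was chosen from the same libraries. Rescaling whole libraries shifts every gene by nearly the same amount, and robust quasi-likelihood left the ranges unchanged. The ranges came nearest without knockout-labelled 22, at -0.25 for the lowest gene before mt-Tg and -0.32 for the highest beyond it.

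Across the 13 genes, the log2 fold change had a Pearson r of -0.878 (Spearman -0.868) with place in the gene order, 0.103 (0.033) with gene length, 0.093 (0.104) with GC content and 0.666 (0.637) with wild-type FPKM. These are descriptions across genes of the same 4 libraries that share precursors and overlapping reads, and genes are not independent replicates. Place here is order along the genome. For mt-Nd6, number 12 in that order, it is not the order of transcription, because that gene is read from the opposite strand.

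**Figure D3:**
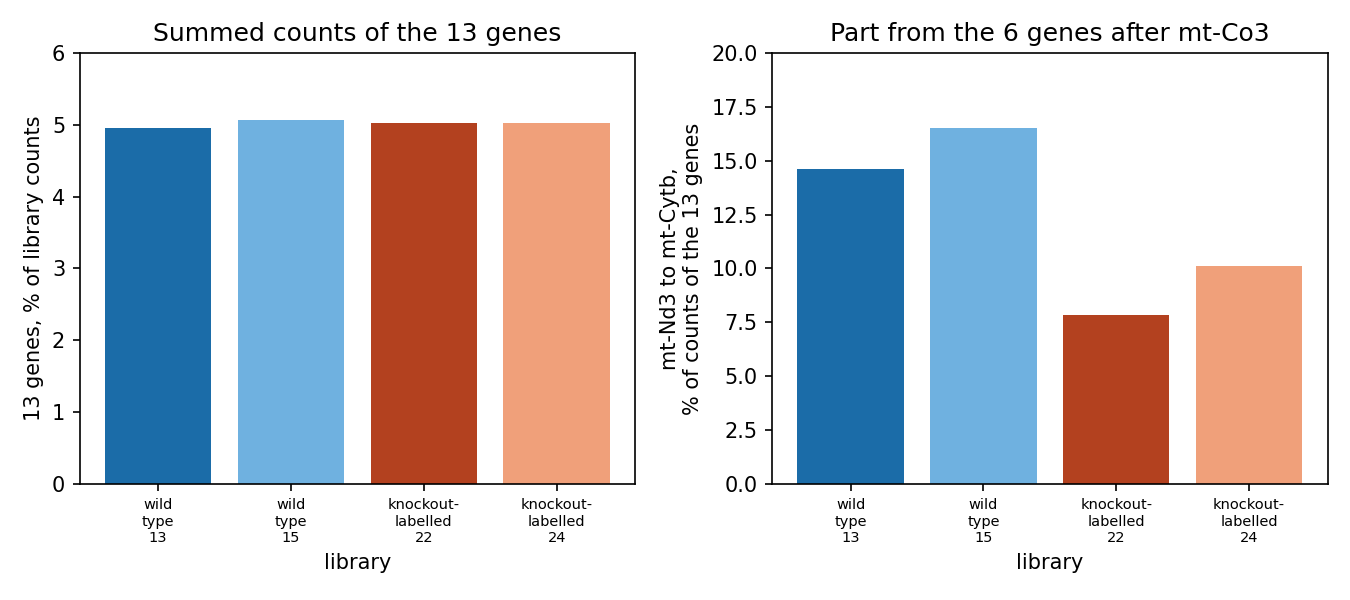
Left, the counts of the 13 genes as a percentage of each library's counts, 4.96 to 5.06% in the 4 libraries. Right, the percentage of those counts that came from the 6 genes mt-Nd3 to mt-Cytb, 14.6 and 16.5% in wild type and 7.83 and 10.1% in the knockout-labelled libraries (1 bar for each library, both axes from 0).

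Composition needs no scaling between libraries. The 6 genes beyond mt-Co3 gave 14.6% and 16.5% of the 13 genes' counts in wild type 13 and 15, and 7.83% and 10.1% in knockout-labelled 22 and 24. The counterpart was mt-Co1, with 49.8% and 47.5% in wild type and 60.5% and 55.4% in the knockout-labelled libraries. These shares add up to a fixed total, so a rise in one of them entails a fall elsewhere.

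Ratios of a few chosen pairs of genes, per unit of length, restate the differences given above and are not further support for them. On the FPKM scale mt-Cytb stood at 2.44 and 2.62 times mt-Nd1 in wild type, and at 1.002 and 1.411 times mt-Nd1 in the knockout-labelled libraries. The ratio of mt-Nd5 to mt-Nd1 was 1.58 in each wild-type library against 0.869 and 1.04. Between the complex IV genes mt-Co3 and mt-Co1 the ratio was 0.353 and 0.376 in wild type and 0.212 and 0.302 in the knockout-labelled libraries. In these 3 ratios knockout-labelled 22 was the lowest library. The groups overlapped for mt-Nd4l to mt-Nd4, at 0.813 and 1.02 in wild type against 0.848 and 0.736. They also overlapped for mt-Atp8 to mt-Atp6, at 1.07 and 1.12 against 1.11 and 0.861. Knockout-labelled 24 was the lowest in both ratios. Each of these pairs shares bases, but so do mt-Nd5 and mt-Nd6, for whose ratio, given above, the groups did not overlap.

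Nuclear chromosomes hold copies of mitochondrial DNA, and reads that match both a copy and its origin can be assigned to either. Of 10 listed candidates, 9 resembled a member and 8 of those were tested. The 7 on chromosome 1, between 24611535 and 24616197 on the minus strand, are annotated as unprocessed pseudogenes, and Gm10925, Gm28437, Gm28661, Gm28439 and Gm10222 are identical over their aligned length to mt-Atp6, mt-Co3, mt-Co2, mt-Nd4 and mt-Nd4l. Gm28438 differs from mt-Nd3 by the single substitution T3C, counted from 1 at the first base of mt-Nd3. The first 18 bases, at MT 9459 to 9476 for mt-Nd3, show how little tells these copies from their origin, with the differing base in capitals.
mt-Nd3: atTaacctgtacactgtt
Gm28438: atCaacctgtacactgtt

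For each of the 8 tested copies the log2 fold change had the sign of that of the gene it resembles. Gm28438 had a log2 fold change of -0.64 beside -0.66 for mt-Nd3, Gm28439 -0.43 beside -0.42 for mt-Nd4, Gm10222 -0.51 beside -0.65 for mt-Nd4l, and Gm10925 0.21 beside 0.12 for mt-Atp6. Gm28661 and Gm28437 had -0.07 and -0.12 beside -0.15 for mt-Co2 and -0.20 for mt-Co3, and both turned positive without knockout-labelled 22. Gm13340, a copy of mt-Co1 on chromosome 2, had 0.30 beside 0.32. The part of the joint counts that went to Gm28438 was 9.57, 10.2, 9.45 and 10.4% in wild type 13 and 15 and knockout-labelled 22 and 24. Because reads are shared, these values are not a second measurement, and counts of such pairs are uncertain.

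One copy passed the threshold. Gm29216, which differs from mt-Co1 at 1 of 483 aligned bases, rose from 542 and 494 CPM to 685 and 771 (log2 fold change 0.49 ± 0.12, beside 0.32 ± 0.10 for mt-Co1, adjusted p = 0.0493, edgeR's quasi-likelihood test). This pair was the furthest apart of the 8, and knockout-labelled 24 was the higher of its group for Gm29216 but the lower for mt-Co1. The call was lost without wild type 13 (0.213) or 15 (0.406), with upper-quartile scaling (0.071) or library totals alone (0.0696), and on FPKM (0.118 with limma). For mt-Nd1, mt-Nd2, mt-Atp8, mt-Nd5, mt-Nd6 and mt-Cytb the list held no copy, so 3 of the 4 genes that fell have none among those examined.

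**Figure D4:**
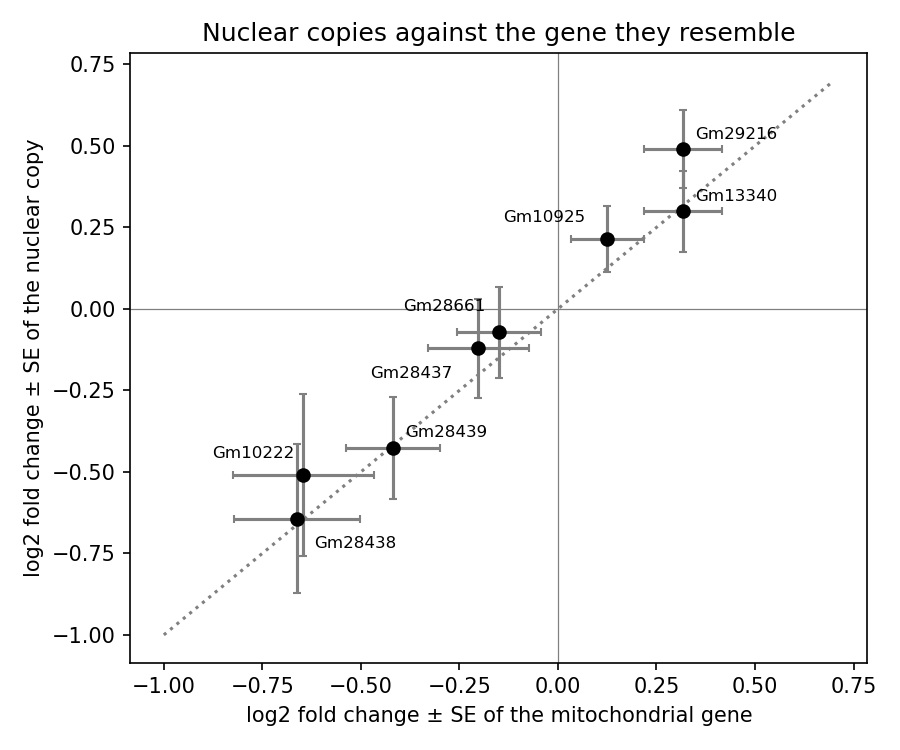
Log2 fold change (± SE, n = 2 libraries a group) of 8 nuclear copies against that of the mitochondrial gene each resembles, with the dotted line marking equal values. Copies range from Gm28438 at -0.64 to Gm29216 at 0.49, the latter the furthest from the line.

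Nuclear genes that serve mitochondria were read in 11 lists holding 304 genes, of which 303 were tested, 9 fell and 3 rose. The lists cover mitochondrial RNA, translation and DNA maintenance. They also cover nuclear respiratory chain subunits, regulators of biogenesis, and chaperones and stress factors. Against 4.59% lower and 5.53% higher over all genes, neither count was above the background. None of these lists had a median under that of the mitochondrially encoded genes except rRNA modification and assembly, at -0.29.

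Among 12 genes of mitochondrial transcription, 0 passed in either direction (edgeR; at an unadjusted p under 0.05, 0 higher and 1 lower; DESeq2 and limma-voom, 0 each), with a median log2 fold change of -0.10. The elongation factor Tefm had the lowest p, at 6.62 and 7.71 CPM in wild type and 2.94 and 4.596 in the knockout-labelled libraries (log2 fold change -0.92 ± 0.29, adjusted p = 0.0889). Polrmt, the mitochondrial RNA polymerase, had 23.4 and 30.3 CPM against 28.0 and 23.9, and Tfam, which binds the promoters and packages the genome, 61.3 and 65.9 against 49.3 and 63.6. Both overlapped between the groups, and they were picked for their roles with their values known.

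In the list of RNA processing and decay, 1 of 28 genes fell and 0 rose. It was Lrpprc, whose protein binds and stabilizes mitochondrial mRNAs, at 56.4 and 65.3 CPM in wild type and 31.8 and 37.5 in the knockout-labelled libraries (log2 fold change -0.81 ± 0.15, adjusted p = 0.0278). The call was lost without wild type 13 (0.07) or 15 (0.193) and on FPKM (0.0565 with limma). The exonuclease gene Rexo2 had 115 and 129 CPM against 51.2 and 84.6 (adjusted p = 0.0674), also without overlap. The median of the list was -0.09.

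Of 19 genes that modify mitochondrial tRNAs, 2 fell. Nsun3, a tRNA methyltransferase gene, had 13.8 and 15.97 CPM in wild type against 5.89 and 6.26 (log2 fold change -1.29 ± 0.20, adjusted p = 0.0199), lost without wild type 15 (0.1004). Cdk5rap1, which encodes a methylthiotransferase acting on tRNAs, had 19.0 and 15.8 CPM against 6.69 and 9.19 (log2 fold change -1.13 ± 0.23, adjusted p = 0.0332), lost without wild type 13 (0.135) or 15 (0.0831) and on log2(FPKM + 0.1) (0.0504 with limma). Of 16 genes of rRNA modification and ribosome assembly, 0 passed (edgeR; unadjusted, 1 higher and 6 lower; DESeq2 and limma-voom, 0 each). Its members with the lowest p included Mtg1, a GTPase gene, at 16.5 and 15.97 CPM against 10.7 and 10.6.

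Translation lists moved little. Of 83 mitochondrial ribosomal protein genes 1 rose, Mrpl9 (73.5 and 71.2 CPM in wild type against 153 and 122, log2 fold change 0.93, adjusted p = 0.0221), and 1 fell, Mrps2 (36.4 and 33.7 against 17.6 and 22.3, log2 fold change -0.81, adjusted p = 0.0377). Both calls were lost when either wild-type library was left out (adjusted p of 0.103 and 0.145 for Mrpl9, 0.178 and 0.163 for Mrps2), and Mrps2 also on FPKM (0.0564 with limma). Of 22 genes of tRNA charging 1 fell, Gatc, a subunit of the glutaminyl-tRNA amidotransferase (log2 fold change -0.88, adjusted p = 0.0364), lost in the same way (0.188 and 0.129). Of 13 translation factors 0 passed (edgeR; unadjusted, 1 higher and 1 lower; DESeq2, 1 higher; limma-voom, 0).

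The nuclear subunits of the same complexes offer the closest comparison, with 70 genes tested. Of these 1 rose and 0 fell, and the median log2 fold change was -0.09. Uqcrh, a complex III hinge protein gene, rose from 157 and 130 CPM in wild type to 207 and 221 (log2 fold change 0.57 ± 0.14, adjusted p = 0.0485), lost without wild type 13 (0.161) or 15 (0.445), with upper-quartile scaling (0.0603) or library totals (0.0588), and on FPKM (0.0714 with limma). The ATP synthase beta subunit gene Atp5b had 818 and 817 CPM against 644 and 621 (log2 fold change -0.37 ± 0.10, adjusted p = 0.0646). At an unadjusted p under 0.05 in edgeR, 3 were higher and 10 lower, while DESeq2 and limma-voom called 1 higher and 0 lower each. No share over all genes at these cuts stands beside them, so no excess is read from these counts. Knockout-labelled libraries lay below wild type for 25 of the 70 and above for 10. Over all genes tested 32.7% lay below and 31.1% above, so the count below is near the background and the count above is under it. The difference between these genes and the mitochondrially encoded ones was not tested.

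Of 20 genes that copy and maintain mitochondrial DNA, 0 passed (edgeR; unadjusted, 2 higher and 5 lower; DESeq2, 1 higher and 2 lower; limma-voom, 1 lower), with a median of -0.02. Lowest in p were Top1mt, the mitochondrial topoisomerase gene, at 9.44 and 10.9 CPM in wild type against 5.89 and 4.85, and the nuclease and helicase gene Dna2, at 24.2 and 26.6 against 8.83 and 15.2. The number of mitochondrial genomes was not measured. In bulk RNA, fewer cells of a type and less RNA per cell cannot be told apart, for these genes as for the members.

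**Figure D5:**
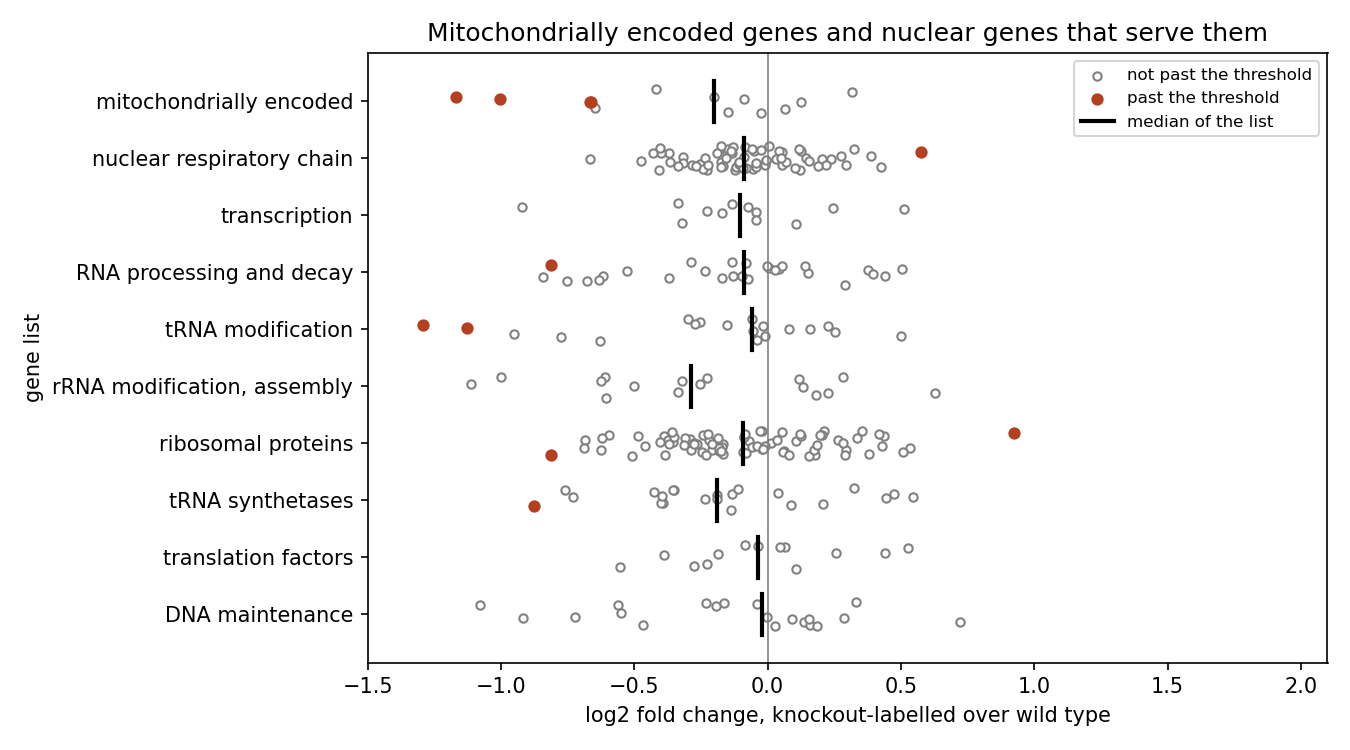
Log2 fold change (knockout-labelled over wild type) of single genes in the mitochondrially encoded set and 9 nuclear lists, 1 circle a gene, filled where the adjusted p was under 0.05, with a bar at each list's median. The mitochondrially encoded genes spread from -1.17 to 0.32 around -0.20, and the nuclear respiratory chain genes cluster around -0.09.

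Some RNAs outside these lists were read as well. Gm42418, which resembles 18S rRNA, rose from 67.8 and 58.6 CPM to 127 and 116 (log2 fold change 0.95 ± 0.14, adjusted p = 0.019), lost without wild type 13 (0.0645) or 15 (0.158). Of 4 nuclear-retained RNAs tested, 0 passed. Malat1 had 471 and 514 CPM in wild type against 407 and 392 (adjusted p = 0.121, edgeR's quasi-likelihood test). Neat1 had 304 and 267 against 197 and 265. Both lay below wild type without overlap, as did 32.7% of all genes tested. Kcnq1ot1 (log2 fold change 0.07) and Mir17hg (-0.39) overlapped between the groups. How rRNA was removed or mRNA selected is not given in the sources used here, and the part of these differences in the result was not tested.

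B cell markers summed to 15.8 and 14.2 CPM of the unscaled library totals in wild type and 34.1 and 24.4 in the knockout-labelled libraries, above for 5 of 5 genes (31.1% of all genes tested), of which 0 passed (edgeR; unadjusted, 4 higher; DESeq2 and limma-voom, 0). CD8 T cell markers summed to 127, 187, 175 and 78.5, natural killer markers to 26.8, 25.3, 16.3 and 11.8, myeloid markers to 21.5, 26.0, 20.01 and 27.9, and erythroid markers to 2.62, 2.19, 1.86 and 2.68. Eomes made up most of the natural killer sum and fell from 22.7 and 21.7 to 10.2 and 7.53 CPM (log2 fold change -1.32 ± 0.21, adjusted p = 0.0205, edgeR's quasi-likelihood test), lost without wild type 13 (0.0509) or 15 (0.0558). The other natural killer markers did not share its direction: the log2 fold change was 0.74 for Klrb1c (adjusted p = 0.417) and 0.54 for Tyrobp (adjusted p = 0.269). Ncr1 had 0 counts in both wild-type libraries and 8 and 3 in the knockout-labelled ones, and Alas2, of erythroid cells, had 1 count in wild type 13 and 0 elsewhere. The part of other cells in the mitochondrial result was not tested.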

How the data were processed

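RNA of 4 libraries was compared as 2 groups taken from the genotype label. Bowtie2, RSEM and the GRCm38.p6 (mm10) build are named per the submitters' processing notes. Library type, strand setting and tool versions: not given in the sources used here. The authors' deposited table gave whole-number counts and FPKM, whose implied gene lengths equal the annotated ones. Counts were tested in edgeR 4.0.16 (R 4.3.3) with filterByExpr (minimum count 10, total 15), TMM scaling, glmQLFit and glmQLFTest, two-sided, no covariate, Benjamini-Hochberg over 13279 genes, threshold 0.05. CPM used scaled library sizes, except summed markers and the shares. The SE is the log2 fold change over the root of F and is approximate. An exact test of 2 against 2 libraries cannot go under p = 0.333. Floors cover counting error only.

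Alternatives used DESeq2 1.42.0 and limma 3.58.1, on log2(FPKM + 1) and log2(FPKM + 0.1) for FPKM, which understates changes of low genes. Nuclear copies were aligned with Biopython 1.88 to GENCODE M21 transcripts, and figures were drawn with matplotlib 3.10.9. Members and lists were chosen with earlier results of these data known. Of 403 list members, 363 matched by symbol, 9 by identifier or older symbol and 31 not, mainly mitochondrial rRNA and tRNA genes. Genes eligible to be named were all members, the nuclear copies, cell type markers, and in each other list the 4 with the lowest p and any past the threshold; not every eligible gene is printed, and others are said to be picked by role. In simulated counts for this comparison (13067 genes), edgeR recovered 19.4, 65.7 and 93.9% of genes changed by folds of 1.5, 2 and 4, and 4.8% of calls were unchanged genes. Only 67, 67 and 66 genes were changed at these folds. Spread followed the fitted trend with level, without differences between genes of like level and alike in both groups. The real libraries need not follow these settings, so the rates may not hold for them. Replicates differed beyond counting noise (chi-square per degree of freedom 9.90 in wild type, 30.6 in the knockout-labelled pair, and 139 and 716 over the 13 members), so each was kept as 1 sample. This measure grows with the number of counts, which is high in most members. It therefore does not compare their spread with that of other genes.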

Additional observations from a re-analysis of the deposited data

How the results depend on the processing

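With 2 libraries a group, the calls depend on the wild-type pair. Each library was left out in turn, and the lone library left was then assumed to vary like the other group. Genes called over all genes numbered 1344 and ranged from 190 to 4124, without wild type 15 and knockout-labelled 24 respectively. Mitochondrially encoded genes called numbered 4 and ranged from 0 to 8, those lower 4 and from 0 to 7, and those higher 0 and from 0 to 1. In the 11 nuclear lists the 9 lower ranged from 1 to 45 and the 3 higher from 0 to 24. No filter on low counts gave 2349 genes, 7 members with 1 higher, and 23 lower and 6 higher in the lists. Limma on log2(FPKM + 1) and log2(FPKM + 0.1) each gave 891 genes, 1 member (mt-Nd6, lower), and 1 higher in the lists. Library totals alone gave 16 lower and 1 higher in the lists, DESeq2 17 and 7, and robust quasi-likelihood 14 lower.

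Signs of log2 fold changes turned only on leaving out 1 library: mt-Nd1 had -0.0149 without wild type 13 (range -0.01 to 0.14), mt-Atp8 0.00942 without wild type 15 and 0.17 without knockout-labelled 24 (range -0.25 to 0.17), and Gm28437 and Gm28661 0.0698 and 0.0994 without knockout-labelled 22 (ranges -0.33 to 0.07 and -0.26 to 0.10). The cause was not tested. Over all log2 fold changes recomputed, 540 kept their direction and side of the threshold, 64 lost the threshold, 12 gained it and 5 reversed. The difference in the share of library counts (0.0169 percentage points) was 0.0196 to 0.0522 under the other settings. It was -0.0365 to 0.0703 when 1 library was left out, turning negative without wild type 13 and largest without wild type 15. The size of these moves follows from the spread of the wild-type pair alone, so no stability is read from it. TMM without the members and their nuclear copies, and adding copies to their gene, were chosen after seeing the data. The median of all genes stayed within -0.062 and 0.033 under every scaling. No result could be computed for mitochondrial rRNA or tRNA genes. No paired analysis was possible because the replicate numbers 13, 15, 22 and 24 are not shared between the groups.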

Other observations

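Mitochondrial chaperones, proteases and stress factors held 3 of the 9 falls among the nuclear lists, in 13 genes tested, with 0 higher, where 4.59% of all genes tested were lower and 5.53% higher. With so few genes and no test of the list, nothing particular to it is read from this count. Atf5, a transcription factor of the mitochondrial stress response, fell from 52.0 and 62.2 CPM in wild type to 19.9 and 19.8 (log2 fold change -1.52 ± 0.15, adjusted p = 0.0103, edgeR's quasi-likelihood test) and stayed under the threshold when any 1 library was left out. Lonp1, the matrix protease gene, fell from 188 and 212 to 105 and 108 CPM (log2 fold change -0.91, adjusted p = 0.0165), lost without wild type 13 (0.0533) or 15 (0.129). Trap1, a matrix chaperone gene, fell from 109 and 116 to 73.5 and 75.6 CPM (log2 fold change -0.59, adjusted p = 0.037), lost without wild type 13 (0.200) or 15 (0.319). In all 3 the knockout-labelled libraries were close together, unlike in the mitochondrially encoded genes that fell.

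Among 9 regulators of mitochondrial biogenesis tested, 1 rose and 1 fell. Gabpb1, a subunit of a nuclear respiratory factor, rose from 95.5 and 101 CPM to 146 and 138 (log2 fold change 0.53, adjusted p = 0.0454), and Myc, a growth regulator, fell from 56.0 and 60.8 to 30.4 and 38.4 (log2 fold change -0.76, adjusted p = 0.0337). Both calls were lost when either wild-type library was left out (adjusted p of 0.365 and 0.331 for Gabpb1, 0.111 and 0.205 for Myc) and on FPKM (0.0787 and 0.064 with limma), and Gabpb1 also with library totals (0.0525). Ppargc1a, the coactivator best known for driving mitochondrial biogenesis, had 0 counts in all 4 libraries.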
